A study of Mus musculus with 10 samples.

Results

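The CXC chemokine genes of the mouse that were followed here are Cxcl1, Cxcl2, Cxcl3, Cxcl5, Cxcl9, Cxcl10, Cxcl11 and Cxcl16, 8 of the 21888 genes to which peaks were assigned. A peak was assigned to a gene when it overlapped the gene body or the 10 kb on either side. Peaks of p65 (RelA), which with its partners forms NF-κB, had been mapped by CUT&Tag, in which a transposase tethered to the antibody cuts DNA beside the bound factor and the cut fragments are sequenced. All libraries came from RAW264.7 cells, an established mouse macrophage-like line, with 200000 cells per library and 12 h of treatment. The groups were the solvent DMSO, DMSO with lipopolysaccharide (LPS, from the outer membrane of Gram-negative bacteria and a strong trigger of macrophages), and LPS with skatole (LPS+Skatole, a tryptophan product of gut bacteria), with 3 libraries each. The labels name a p65 antibody, the methods of the study one against phosphorylated p65. The 10th sample, a Blank made without primary antibody, was not analysed here, and whether the deposited values take any control into account is not given in the sources used here. Nothing in the labels says whether the 3 libraries of a group came from separate cultures, so p-values measure only the spread between these libraries.

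CXC chemokines are small secreted proteins that guide leukocytes through G protein-coupled receptors. Cxcl1, Cxcl2, Cxcl3 and Cxcl5 are ligands of Cxcr2 and attract neutrophils, whereas Cxcl9, Cxcl10 and Cxcl11 are interferon-inducible ligands of Cxcr3 and attract T cells. Cxcl16 is a membrane-bound ligand of Cxcr6. In macrophages, NF-κB is a known activator of several of these genes after LPS, through κB sites close to the start of transcription.

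The genes lie in 3 places on GRCm38.p6. The neutrophil-attracting genes are on chromosome 5, with Cxcl5 at chr5:90759298-90761625, Cxcl3 at chr5:90786101-90788093, Cxcl1 at chr5:90891245-90893121 and Cxcl2 at chr5:90903899-90905938. The interferon-inducible genes are further along that chromosome, with Cxcl9 at chr5:92321331-92328079, Cxcl10 at chr5:92346638-92348889 and Cxcl11 at chr5:92359544-92363296. The gene table lists Cxcl11 as a transcribed pseudogene. Cxcl16 is at chr11:70454389-70459984, between Med11 and Zmynd15, whose bodies are inside its window. The windows of Cxcl1 and Cxcl2, of Cxcl9 and Cxcl10, and of Cxcl10 and Cxcl11 overlap, so some peaks count for a pair of genes, and Art3 lies within reach of all 3 interferon-inducible genes. The table gives no exons or introns.

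RefSeq promoters on GRCm38.p6, running from 250 bases before to 50 bases after the start site, were at hand for 5 of the 8 genes. The sequences of 4 are shown because p65 peaks covered the start of Cxcl2 and Cxcl10 but not that of Cxcl1 or Cxcl3. They are chr5:90903649-90903948 for Cxcl2, chr5:90890995-90891294 for Cxcl1 and chr5:90785851-90786150 for Cxcl3 on the plus strand, and chr5:92348840-92349139 for Cxcl10 on the minus strand. Each is written 5′ to 3′, with capitals marking matches, on either strand, to a κB-type motif of GGG, any 3 bases and TTCC.
Cxcl2: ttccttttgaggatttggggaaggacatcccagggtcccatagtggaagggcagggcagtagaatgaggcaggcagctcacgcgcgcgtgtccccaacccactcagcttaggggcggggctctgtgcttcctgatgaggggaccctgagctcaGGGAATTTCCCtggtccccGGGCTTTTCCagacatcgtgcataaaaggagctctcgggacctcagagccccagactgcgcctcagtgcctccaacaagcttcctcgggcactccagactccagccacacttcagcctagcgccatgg
Cxcl1: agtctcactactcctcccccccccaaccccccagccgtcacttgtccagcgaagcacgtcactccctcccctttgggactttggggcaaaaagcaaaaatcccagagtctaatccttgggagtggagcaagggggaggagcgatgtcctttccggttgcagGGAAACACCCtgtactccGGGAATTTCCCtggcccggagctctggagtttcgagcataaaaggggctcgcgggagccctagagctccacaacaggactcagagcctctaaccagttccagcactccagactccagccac
Cxcl3: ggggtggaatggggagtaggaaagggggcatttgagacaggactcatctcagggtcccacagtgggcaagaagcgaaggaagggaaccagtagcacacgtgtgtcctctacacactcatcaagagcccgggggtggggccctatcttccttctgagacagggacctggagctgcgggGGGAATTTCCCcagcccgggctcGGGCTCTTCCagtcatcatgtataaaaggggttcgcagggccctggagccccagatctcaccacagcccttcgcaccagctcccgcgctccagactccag
Cxcl10: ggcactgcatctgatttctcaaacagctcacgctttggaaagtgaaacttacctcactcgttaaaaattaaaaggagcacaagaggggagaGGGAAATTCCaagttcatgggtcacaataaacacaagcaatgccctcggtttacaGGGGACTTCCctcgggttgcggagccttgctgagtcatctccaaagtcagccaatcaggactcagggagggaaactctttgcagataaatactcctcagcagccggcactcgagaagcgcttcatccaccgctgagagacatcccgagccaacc

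The κB-type motif, searched on both strands, was present in 5.56% of 32851 promoters of the same length. Cxcl1, Cxcl2 and Cxcl3 each held 3 matches, and in each of them 2 overlapped in one 11-base sequence, GGGAATTTCCC, shifted by 1 base between the strands. In Cxcl2 this sequence ran from -97 to -87 relative to the start site, and a further match, GGGCTTTTCC, ran from -78 to -69. It ran from -71 to -61 in Cxcl1 and from -73 to -63 in Cxcl3. Cxcl10 held 2 matches, GGGAAATTCC from -159 to -150 and GGGGACTTCC from -104 to -95. Cxcl9 held none. A looser κB form (GGG, any 5 bases and CC, both strands), which includes every match to the first, was in 50.8% of promoters and in all 5 of these. An interferon-response form (GAAA, any 2 bases and GAAA, both strands) was in 3.44% of promoters and, among the 5, in Cxcl10 only, from -213 to -204. The TATA box form TATAAA, also on both strands, was in 13.6% of promoters and, among the 5, in Cxcl3 from -30 to -25 and in Cxcl9 from -195 to -190. These matches describe letters only, and Cxcl1 and Cxcl3 carry the same 11 bases as Cxcl2 without a listed peak over the start.

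The libraries differed in the number of listed peaks and in how weak a peak could be listed. Their sequencing depth was not tested. The lists held 37551 to 43450 peaks in DMSO, 55637 to 63498 in LPS and 78136 to 80153 in LPS+Skatole libraries. Summit heights below are the number of fragments at the summit, recovered from the deposited fold and p-value, and were whole for 158 of 158 peaks at these genes (within 0.05 of a whole number). Divided by the lowest background in the list (the genome background, 1.09 to 1.40 fragments in DMSO, 2.23 to 2.34 in LPS and 2.26 to 2.39 in LPS+Skatole libraries), they are given as multiples of the background. Whether local and genome background were measured in each library or in a control common to several is also not given, so they may not be the library's own signal. At summits shared by 2 libraries their ratio differed by a median of 0.125% to 5.36%, which bears on the limits of calling and on the authors' fold below. Where the local background was lowest, a summit of 6.44 to 7.34 times the background was the weakest called in DMSO, against 4.59 to 4.94 times in the other libraries.

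Listed peaks covered the start of Cxcl2, which encodes a neutrophil chemoattractant, in 3 of 3 LPS and 3 of 3 LPS+Skatole libraries and in 0 of 3 DMSO libraries. The summit held 133, 133 and 154 fragments in the LPS libraries, or 58.0, 59.8 and 65.7 times the background. With skatole added it held 260, 202 and 247 fragments, or 111, 89.4 and 103 times the background. The means were 61.1 ± 4.05 for LPS and 101 ± 11.0 for LPS+Skatole (SD, 3 libraries each), without overlap. By the authors' fold, the ratio of summit to local background, the groups overlapped at these summits, with 3.24, 5.00 and 2.20 in LPS and 5.95, 6.15 and 2.14 in LPS+Skatole libraries. Among all 32851 gene starts with a promoter entry, 0.435% were covered in all LPS and no DMSO libraries, and 0.584% in all LPS+Skatole and no DMSO libraries. The reverse patterns took 0.0548% and 0.1%. Between LPS+Skatole and LPS, 0 of the 5 starts changed in this way, against 0.17% gained and 0.14% lost of all starts.

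The absence of a DMSO peak at the Cxcl2 start has to be read against a high local background. At these summits the local background was 11.6 to 48.0 times the genome background. With the median local background of these summits, a DMSO library needed 41, 49 or 48 fragments to list a peak, or 37.6, 35.0 and 35.3 times its genome background. With the highest local background the limit was 75.1 to 78.9 times, which is above the 3 LPS heights and below the 3 LPS+Skatole heights. A DMSO summit under these limits was not detectable. The summits lay 197, 707 and 272 bp before the start in LPS and 195, 138 and 288 bp before it in LPS+Skatole libraries. Their distance to the centre of the nearest κB-type match was 46 to 614 bp.

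Between LPS+Skatole and LPS, summit height at the Cxcl2 start differed by 0.40 on the log2 scale (SE 0.17) when libraries were scaled to equal medians, which did not pass the test (limma, adjusted p = 0.304). Scaled by the genome background, the difference was 0.72 (limma, adjusted p = 0.0154). Both values come from sites built from summits within 500 bp of each other and present in all 6 libraries of the pair, a division added after the data had been seen. In a separate fit, of the 13824 merged regions in all 9 libraries, the median difference in this comparison was -0.04 with median scaling and 0.24 with genome-background scaling, a shift of 0.28.

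**Figure D1:**
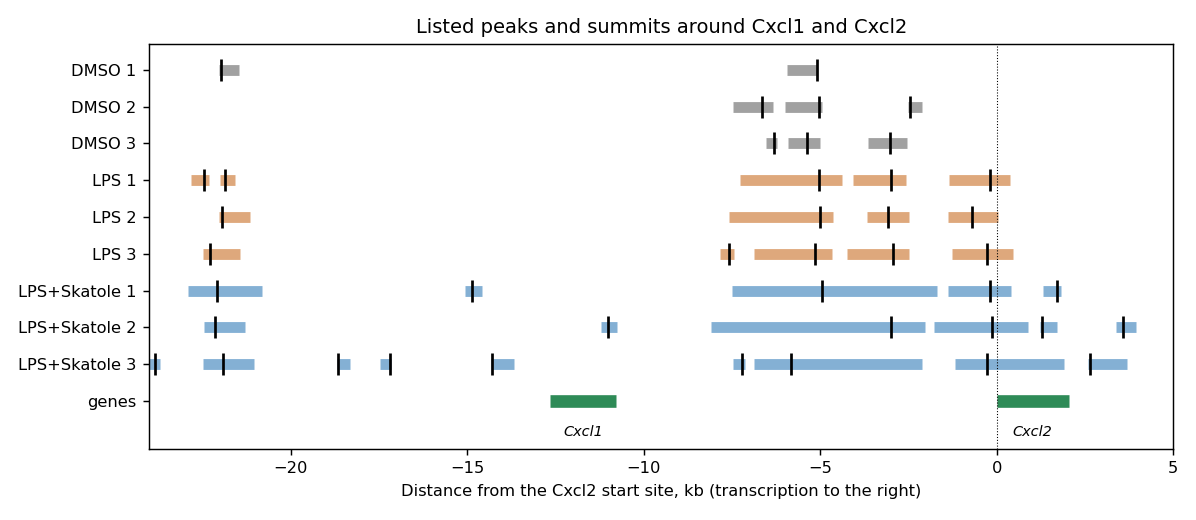
Listed p65 peaks (bars) and summits (black ticks) in each library, by distance in kb from the Cxcl2 start site, with the bodies of Cxcl1 and Cxcl2 in green. Bars cross the Cxcl2 start (dotted line) in the 6 LPS and LPS+Skatole libraries and in 0 of 3 DMSO libraries, while no bar crosses the Cxcl1 start in any library.

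Between Cxcl1 and Cxcl2, all libraries had peaks about 5 kb before the Cxcl2 start. The summit there held 16, 31 and 34 fragments in DMSO (14.7, 22.2 and 25.0 times the background) and 111, 64 and 78 in LPS libraries (48.4, 28.8 and 33.3 times). The LPS values were all above the DMSO values, with a log2 difference of 1.06 (SE 0.29) that did not pass (limma, adjusted p = 0.0521), or 0.84 with genome-background scaling (limma, adjusted p = 0.0742), both from the same added division into sites. In LPS+Skatole replicates 1 and 3 it held 93 and 114 fragments, or 39.7 and 47.6 times the background. In replicate 2 the place was covered by one peak of 6080 bp with its summit, of 114 fragments, at the next site. About 3 kb before the start, that site held 20 and 32 fragments in DMSO replicates 2 and 3 (14.3 and 23.5 times the background). In the LPS libraries it held 69, 77 and 57 (30.1, 34.6 and 24.3 times). In LPS+Skatole replicates 1 and 3 it was covered by the peaks of the site 5 kb before the start, without a summit of its own. DMSO replicate 1 had no peak at this site.

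Peaks of this stretch joined the Cxcl2 start in one merged region, chr5:90895794-90905801. The height of its highest summit was greater by 1.80 on the log2 scale in LPS (SE 0.22; limma, adjusted p = 1.78e-06) and by 2.24 in LPS+Skatole (SE 0.22; limma, adjusted p = 1.26e-08) against DMSO. This compares different places, since the highest summit was at the site 5 kb away in the DMSO libraries and at the Cxcl2 start in the others. The region differed between LPS+Skatole and LPS by 0.44 (SE 0.22; limma, adjusted p = 0.472). With the authors' fold in place of height the differences were 0.98 (adjusted p = 0.319, limma) and 1.21 (adjusted p = 0.101, limma), and neither passed. These values take the largest fold in the region. After LPS that fold (18.5, 18.6 and 14.4) lay 5 kb or 3 kb before the start, not at the highest summit. With skatole added, the folds there (15.2, 27.4 and 33.9) also exceeded those at the start. At the highest summits the direction turned, with a mean unscaled fold of 8.77 for DMSO against 3.48 after LPS and 4.75 with skatole added.

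At Cxcl1, another Cxcr2 ligand, the number of peaks in the window did not overlap between DMSO and the other groups. It was 2, 3 and 3 in DMSO, 5, 4 and 5 in LPS and 4, 4 and 7 in LPS+Skatole libraries. The means were 2.67 ± 0.577, 4.67 ± 0.577 and 5 ± 1.73 (SD, n = 3 each). LPS and LPS+Skatole each lay above DMSO without overlap (exact permutation tests, p = 0.1 for both, the smallest possible with 3 against 3). Of all genes, 10.9% and 22.7% were higher in this way. With lists of equal length, 0 of the 8 genes differed in either comparison. Peaks of the stretch before Cxcl2 are among those in the window, and none covered the Cxcl1 start.

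About 9 kb before Cxcl1, at the edge of its window, a peak was listed in 1 of 3 DMSO, 3 of 3 LPS and 3 of 3 LPS+Skatole libraries. Its summit held 21 fragments in DMSO replicate 1, or 19.3 times the background. With the median local background of these summits, DMSO replicates 2 and 3 needed 16.4 and 16.9 times the background to list a peak. With the highest, they needed 32.9 and 33.1 times, so a DMSO summit as high as those in LPS could go unlisted. The summit held 46, 33 and 52 fragments in LPS (20.0, 14.8 and 22.2 times) and 103, 98 and 89 in LPS+Skatole libraries (44.0, 43.4 and 37.2 times). The LPS+Skatole heights were all above the LPS heights. The local background was 4.08 times the genome background at the DMSO summit, 3.99 to 7.96 times at the LPS summits and 16.6, 16.6 and 4.15 times at the LPS+Skatole summits. By the authors' fold, which divides by the local background, the groups overlapped, with 4.60, 3.44 and 2.69 in LPS and 2.61, 2.58 and 8.23 in LPS+Skatole libraries. The log2 height difference of 0.82 (SE 0.27) did not pass with median scaling (limma, adjusted p = 0.168, or 0.178 as a merged region) and was 1.14 with genome-background scaling (limma, adjusted p = 0.0148). The value that passed again comes from the sites added after the data had been seen.

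The other Cxcr2 ligands had few peaks. Cxcl3 had 0 in each DMSO library, 0, 1 and 2 after LPS and 0, 1 and 0 after LPS+Skatole, with 4 merged regions that were each seen in 1 library. Cxcl5 had 1 peak in DMSO replicate 1 and 0 in the other 8 libraries. For Cxcl2 the numbers were 1, 3 and 3 in DMSO, 3, 3 and 4 in LPS and 3, 5 and 4 in LPS+Skatole libraries, which overlapped between groups.

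**Figure D2:**
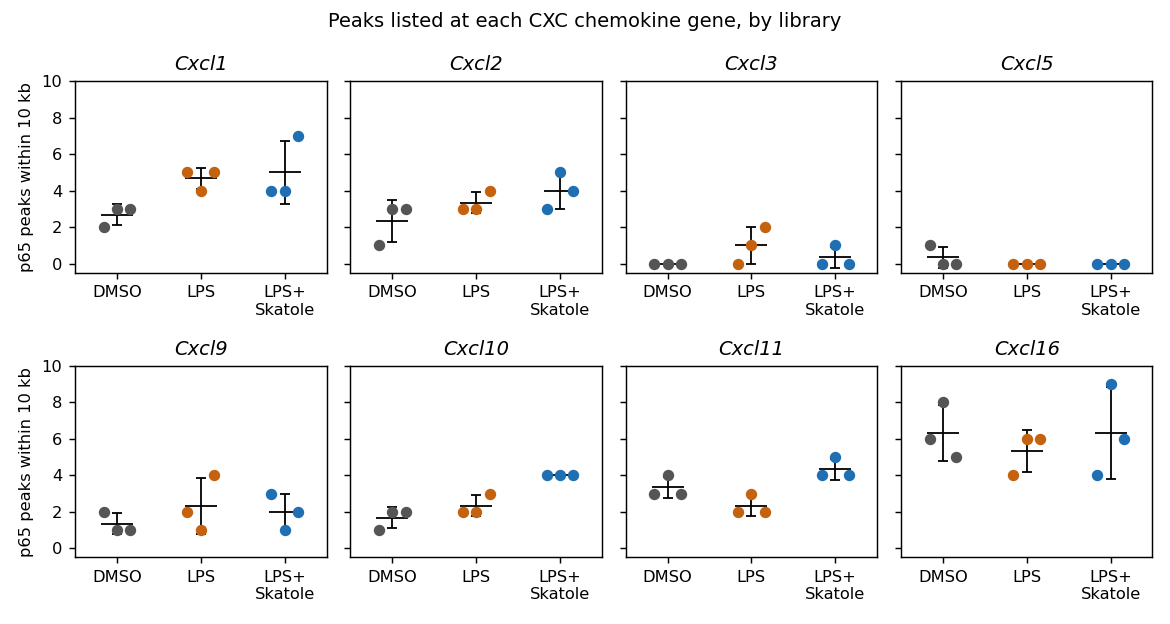
Number of listed p65 peaks overlapping each gene body or the 10 kb on either side, 1 point per library, with the mean and SD of 3 libraries. Cxcl1 is higher in LPS than in DMSO without overlap, and Cxcl10 has 4 peaks in each LPS+Skatole library against 1 to 3 in the others.

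Cxcl10, an interferon-inducible attractant of T cells, had a peak over its start in all 9 libraries, as did 17.1% of gene starts. The summit held 24, 37 and 48 fragments in DMSO (22.0, 26.5 and 35.3 times the background), 57, 55 and 42 in LPS (24.8, 24.7 and 17.9 times) and 65, 90 and 49 in LPS+Skatole libraries (27.8, 39.8 and 20.5 times). The heights of the 3 groups overlapped. The log2 difference (SE 0.30 in each case) was -0.10 between LPS and DMSO, 0.07 between LPS+Skatole and LPS and -0.04 between LPS+Skatole and DMSO (limma, adjusted p = 0.926, 0.960 and 0.958). Unlike at the Cxcl2 start, the local background was low, at 1.40 to 2.11 times the genome background. The summits lay 18, 83 and 105 bp before the start in DMSO, 46, 14 and 46 bp in LPS and 507, 140 and 78 bp in LPS+Skatole libraries. In 8 of the 9 libraries they were within 86 bp of the centre of a κB-type match in the promoter printed above, and LPS+Skatole replicate 1 was the exception, at 352 bp.

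Around this shared peak, LPS+Skatole libraries listed the most peaks. Cxcl10 had 1, 2 and 2 peaks in DMSO, 2, 2 and 3 in LPS and 4, 4 and 4 in LPS+Skatole libraries. Cxcl11, listed as a transcribed pseudogene in the gene table, shared part of its peaks with Cxcl10. It had 3, 4 and 3 peaks in DMSO, 2, 3 and 2 in LPS and 4, 5 and 4 in LPS+Skatole libraries. Both were higher in LPS+Skatole than in LPS without overlap, and Cxcl10 also than in DMSO (exact permutation tests, p = 0.1 for each). Of all genes, 8.11% and 22.7% were higher in this way in these comparisons. With lists of equal length, 0 of the 8 genes differed in either comparison, and by nearest gene 0 differed between LPS+Skatole and LPS. The additional regions were seen in 1 to 3 libraries each.

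**Figure D3:**
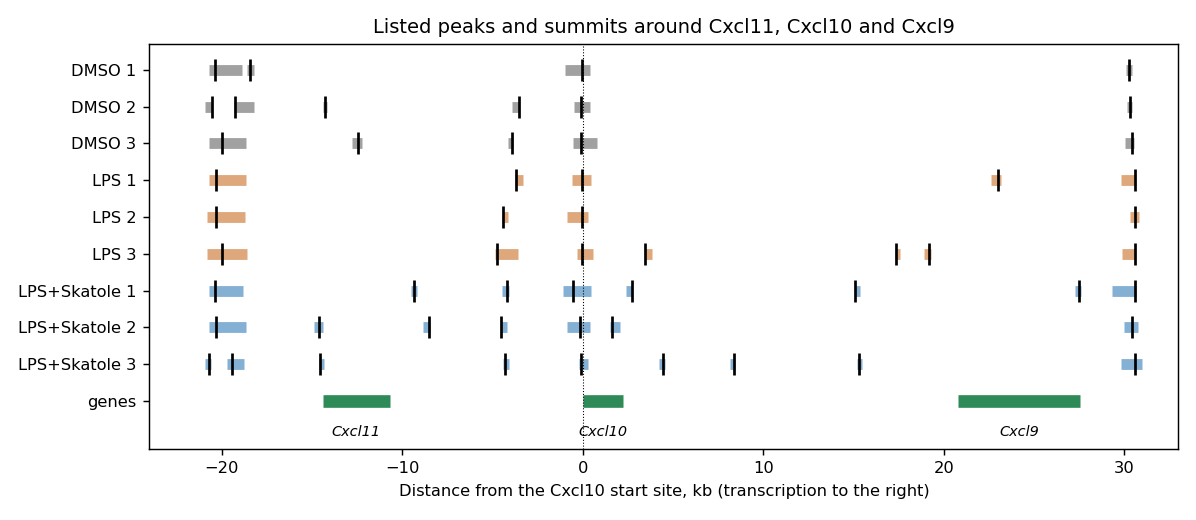
Listed p65 peaks (bars) and summits (black ticks) in each library, by distance in kb from the Cxcl10 start site, with the bodies of Cxcl11, Cxcl10 and Cxcl9 in green. Bars cross the Cxcl10 start (dotted line) in all 9 libraries, and further bars recur at the outer ends of the stretch, beyond Cxcl11 and past the end of Cxcl9.

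A site 6 kb from the Cxcl11 body, in the region chr5:92367064-92369794, had a peak in all 9 libraries. The summit there held 50, 46 and 98 fragments in DMSO, 136, 126 and 106 in LPS and 117, 105 and 51 in LPS+Skatole libraries. As multiples of the background, the DMSO values (45.9, 32.9 and 72.1) and the LPS values (59.3, 56.6 and 45.2) overlapped. Between LPS and DMSO the region differed by 0.30 on the log2 scale (SE 0.24; limma, adjusted p = 0.636). With genome-background scaling this difference was 0.10 (limma, adjusted p = 0.828). For the region as a whole the log2 difference between LPS+Skatole and LPS was -0.63 (SE 0.24), which did not pass after adjustment (limma, unadjusted p = 0.0143, adjusted p = 0.310). It was -0.35 with genome-background scaling (limma, unadjusted p = 0.159, adjusted p = 0.435), and -0.43 without LPS+Skatole replicate 3 and -0.53 without LPS replicate 1 (limma, unadjusted p = 0.105 and 0.0669). At the site alone, one of those added after the data had been seen, it was -0.82 (SE 0.27; limma, unadjusted p = 0.0041, adjusted p = 0.206). About 4 kb before the Cxcl10 start, the region chr5:92352204-92353716 had peaks in 2 of 3 DMSO, 3 of 3 LPS and 3 of 3 LPS+Skatole libraries, with 13 to 67 fragments at the summit.

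Cxcl9, the third interferon-inducible ligand, had no peak over its start in any library. Its window held 2, 1 and 1 peaks in DMSO, 2, 1 and 4 in LPS and 3, 1 and 2 in LPS+Skatole libraries. One region, chr5:92317929-92319556, about 3 kb beyond the end of the gene, was found in all 9. Its summit held 13, 17 and 25 fragments in DMSO (11.9, 12.2 and 18.4 times the background), 63, 59 and 47 in LPS (27.5, 26.5 and 20.1 times) and 58, 77 and 69 in LPS+Skatole libraries (24.8, 34.1 and 28.8 times). All DMSO values were below all others. Height differed by 1.01 on the log2 scale for LPS against DMSO (SE 0.30; limma, adjusted p = 0.0724). It rose by 0.98 in LPS+Skatole against DMSO (SE 0.30; limma, adjusted p = 0.0361). By the authors' fold, scaled to equal medians, the first difference was -0.77 (limma, adjusted p = 0.612) and the second -0.23 (limma, adjusted p = 0.846), both turned in direction. The call was also lost when DMSO replicate 1 or 2 or LPS+Skatole replicate 2 or 3 was left out (limma, adjusted p = 0.0838 to 0.124). With regions or added sites in all 6 libraries of the pair it did not pass either (limma, adjusted p = 0.0608 and 0.059). It passed with genome-background scaling (limma, adjusted p = 0.0232 as a region and 0.0457 as a site). The local background was 1.47 to 1.49 times the genome background at the DMSO summits, 5.74 to 5.93 at the LPS summits and 1.42 to 5.97 at the LPS+Skatole summits, which lay at shifted positions.

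Cxcl16 had the highest mean number of peaks in each group, with 6, 8 and 5 in DMSO, 4, 6 and 6 in LPS and 4, 9 and 6 in LPS+Skatole libraries, with overlap between all groups. The region chr11:70451633-70454632 covers Med11, which encodes a subunit of the Mediator complex, and reaches the Cxcl16 body. Its summit held 138, 132 and 126 fragments in DMSO, 189, 181 and 213 in LPS and 266, 258 and 358 in LPS+Skatole libraries. In multiples of the background this was 127, 94.4 and 92.7 in DMSO and 82.4, 81.3 and 90.9 in LPS libraries. It was 114, 114 and 149 in LPS+Skatole libraries. By these multiples all LPS values were below all DMSO values. The log2 differences were -0.09 between LPS and DMSO and 0.28 between LPS+Skatole and LPS (SE 0.16 for both; limma, adjusted p = 0.866 and 0.561). With genome-background scaling the first was -0.29 (limma, adjusted p = 0.294) and the second 0.56 (limma, adjusted p = 0.073). With this scaling the site built from summits passed for the second (0.56, limma, adjusted p = 0.035). By the authors' fold, scaled to equal medians, the difference for the region was -0.23 (limma, adjusted p = 0.897). That value takes the largest fold in the region, which lay at a second summit in the LPS libraries and in LPS+Skatole replicates 2 and 3. At the highest summit, the unscaled folds were higher in LPS+Skatole (2.86, 2.87 and 3.77) than in LPS libraries (2.16, 2.12 and 2.30) without overlap. At the other end of the body, which overlaps Zmynd15, the region chr11:70459237-70459907 had peaks in 3 of 3 DMSO, 1 of 3 LPS and 3 of 3 LPS+Skatole libraries. The summits held 18.4, 37.2 and 28.7 times the background in DMSO and 20.2 in LPS replicate 2. With skatole added they held 17.5, 15.5 and 18.8 times. With the median local background of these summits, LPS replicates 1 and 3 needed 13.9 and 14.1 times to list a peak. With the highest they needed 23.5 times, so an LPS summit as high as those with skatole could go unlisted. About 7 kb from the body on the Med11 side, the region chr11:70446016-70447813 had a peak in all 9 libraries. Its summit held 60, 52 and 82 fragments in DMSO, 73, 72 and 82 in LPS and 105, 117 and 69 in LPS+Skatole libraries. In multiples of the background, the DMSO values (55.1, 37.2 and 60.3) were all above the LPS values (31.8, 32.3 and 35.0). The LPS+Skatole values were 44.9, 51.8 and 28.8. Neither step passed with median scaling (limma, adjusted p = 0.497 and 0.987). With genome-background scaling the log2 differences were -0.59 (limma, adjusted p = 0.149) and 0.30 (limma, adjusted p = 0.529).

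A region whose summits lay 8 kb from Cxcl16, chr11:70465141-70470479, which overlaps the end of Zmynd15, rose with LPS. Its summit held 78, 82 and 81 fragments in DMSO (71.6, 58.6 and 59.6 times the background), 184, 215 and 191 in LPS (80.2, 96.6 and 81.5 times) and 235, 232 and 247 in LPS+Skatole libraries (100.4, 103 and 103 times). It was higher than in DMSO by 0.64 on the log2 scale in LPS (SE 0.17; limma, adjusted p = 0.0402) and by 0.61 in LPS+Skatole (SE 0.17; limma, adjusted p = 0.021). Leaving out DMSO replicate 2 or 3 lost both calls, leaving out any LPS library lost the first (limma, adjusted p = 0.0713 to 0.197), and leaving out LPS+Skatole replicate 2 or 3 lost the second (limma, adjusted p = 0.0514 and 0.0569). The rise in LPS did not pass with genome-background scaling (0.44; limma, adjusted p = 0.114). It was about as large but narrowly missed with the replicate block (0.64; limma, adjusted p = 0.0519) and with regions in all 6 libraries of the pair (0.67; limma, adjusted p = 0.0516). LPS+Skatole and LPS differed by -0.03 (SE 0.17; limma, adjusted p = 0.971), or 0.25 with genome-background scaling. The region is nearer to Zmynd15 than to Cxcl16, and which gene it belongs to was not tested.

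**Figure D4:**
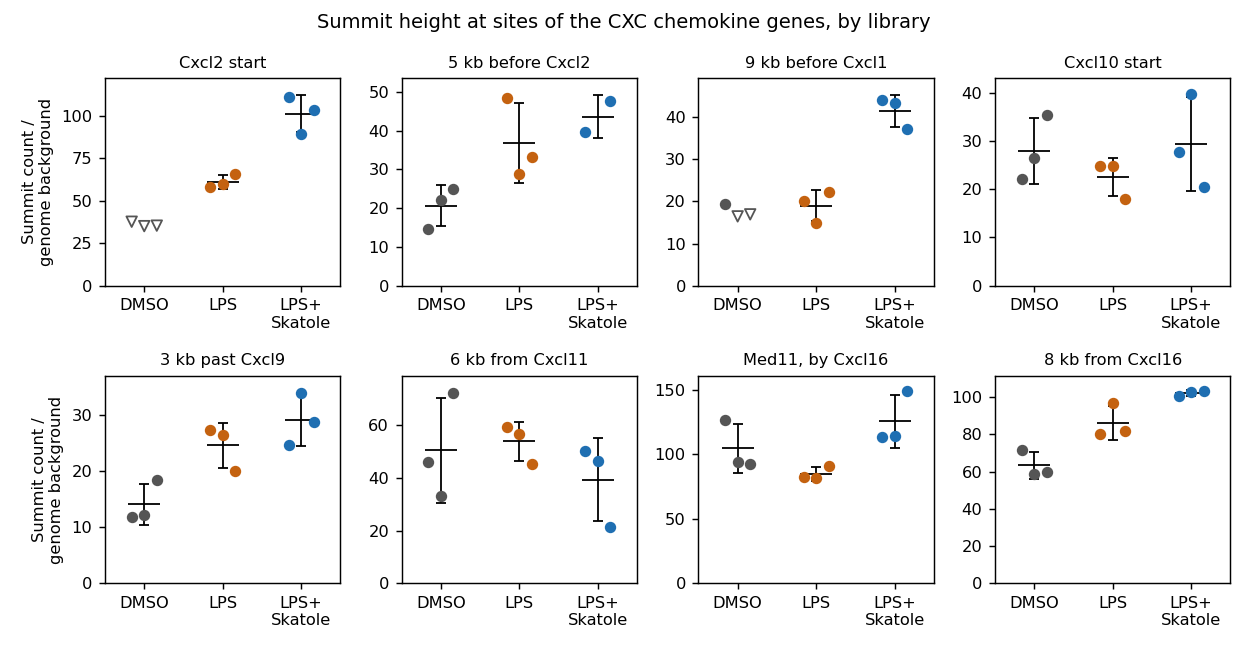
Summit height, as multiples of the genome background, at 8 sites of the CXC chemokine genes, 1 point per library with a summit there. The mean and SD are drawn for groups with more than 1 point. LPS+Skatole replicate 2 has no mark 5 kb before Cxcl2, where a peak with its summit elsewhere covered the site. Open triangles mark the limit of calling in libraries without a peak, at the median local background of the site. LPS+Skatole points are above LPS points without overlap at the Cxcl2 start, 9 kb before Cxcl1, at Med11 and 8 kb from Cxcl16 (where median scaling turned the log2 difference to -0.03), and groups overlap at the Cxcl10 start.

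Few of the 8 genes differed between groups in peak number. Peak numbers were higher in LPS than in DMSO without overlap at 1 of 8 genes (Cxcl1), against 10.9% of all genes, and lower at 0 of 8, against 0.324%. They were higher in LPS+Skatole than in LPS at 2 of 8 (Cxcl10 and Cxcl11), against 8.11%, and lower at 0 of 8, against 0.69%. Between LPS+Skatole and DMSO they were higher at 2 of 8 (Cxcl1 and Cxcl10), against 22.7%, and lower at 0 of 8, against 0.155%. Cut to equal length, the lists gave 0 of 8 in each comparison, against 4.45%, 3.18% and 5.66% of all genes in either direction. The 8 windows together held 14, 17 and 13 distinct peaks in DMSO, 14, 15 and 21 in LPS and 17, 24 and 23 in LPS+Skatole libraries. Per 10000 listed peaks that was 3.61 ± 0.384, 2.80 ± 0.439 and 2.70 ± 0.478 (SD, n = 3 each).

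These peaks formed 42 merged regions, of which 7 were present in all 9 libraries, and none was in 3 of 3 libraries of one group and 0 of 3 of another. Among all regions, 0.984% were gained and 0.0408% lost in this way between LPS and DMSO, 0.507% and 0.112% between LPS+Skatole and LPS, and 1.85% and 0.034% between LPS+Skatole and DMSO. Split into 51 sites by summit, 1 site, the Cxcl2 start, was gained in LPS, against 1.01% of all sites, and 1 of 51 in LPS+Skatole against DMSO, the same site, against 1.83%. No site was lost in either, against 0.0753% and 0.0769%, and 0 of 51 were gained or lost between LPS+Skatole and LPS, against 0.527% and 0.14%. By height, 2 of the 7 shared regions passed as higher in LPS against DMSO, the Cxcl2 region and the one at Zmynd15, against 1.28% of 13824 regions, and 0 of 7 fell, against 0.514%. The Cxcl2 region is counted here although its highest summit was at different places in DMSO and the other groups, and its site 5 kb before the start, compared with itself, did not pass. Against DMSO, LPS+Skatole was higher at 3 of 7, these (the Cxcl2 region with the same limit) and the one past Cxcl9, against 3.96%, and lower at 0 of 7, against 4.43%. Between LPS+Skatole and LPS, 0 of 7 passed limma after adjustment, against 0.0434% higher and 0.123% lower, and 1 of 7, the region by Cxcl11, was lower at an unadjusted p under 0.05, against 6.76% of regions lower and 3.95% higher. The authors' fold gave 0 of 7 in every comparison. The median log2 difference of the 7 was 0.30 between LPS and DMSO and 0.02 between LPS+Skatole and LPS, and the median of all regions was -0.04 in both.

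Each list was also ranked by p-value, with positions given as a percent of the list from the top. The lists differ in length, and the percent does not remove this. A list lengthened by weak peaks lowers the percent of every stronger peak. The best peak of the merged Cxcl2 region stood 19.7% to 62.5% from the top in DMSO, 3.46% to 8.17% in LPS and 2.32% to 3.99% in LPS+Skatole libraries. That peak was at the site 5 kb or 3 kb before the gene in all libraries but LPS+Skatole replicate 1, where it was at the start itself. The peak over the Cxcl2 start stood at 22.3%, 11.6% and 36.8% in LPS and at 3.99%, 5.92% and 27.8% in LPS+Skatole libraries, with overlap. The region at Zmynd15 stood at 20.8% to 35.5% in DMSO, 3.24% to 4.93% in LPS and 1.68% to 5.54% in LPS+Skatole libraries. These 2 of 7 regions were nearer the top in LPS than in DMSO without overlap, against 20.2% of all regions, and 0 of 7 were further from it, against 2.49%. In LPS+Skatole against LPS, 1 of 7, the Med11 region, was nearer the top, against 14.2%, and 1 of 7, the region by Cxcl11, was further from it, against 3.04%. In LPS+Skatole against DMSO, 3 of 7 were nearer the top, the Cxcl2, Zmynd15 and Med11 regions, against 31.3%, and 0 of 7 were further from it, against 1.68%. By rank without the percent, the Med11 region overlapped. It ranked 7243, 10833 and 6236 in DMSO and 11253, 11740 and 4437 in LPS+Skatole libraries. The Cxcl10 start stood at 14.6% to 36.1%, 12.2% to 26.5% and 6.90% to 23.0%, with overlap.

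Other genes of the pathway were counted in the same way. Of 7 other CXC ligands, 1 had a peak in all 9 libraries (Cxcl17) and 3 in none (Cxcl12, Pf4 and Ppbp), against 10.9% of all genes with a peak in none. None of the 7 had non-overlapping numbers in any comparison. Of 8 receptors, 1 had a peak in all 9 libraries (Cxcr5, a receptor of B cells), and 1, Cxcr3, the receptor of Cxcl9 and Cxcl10, was listed with more peaks in every LPS+Skatole than in any DMSO library, against 22.7% of all genes. All 6 macrophage markers had peaks in all 9 libraries, as did 3 of 12 markers of other cell types (Cd3g, Cd79a and Comp) and 54.2% of all genes. Peak numbers of the macrophage markers were higher without overlap at 1 of 6 in LPS against DMSO, at 1 of 6 (and lower at 1) in LPS+Skatole against LPS and at 3 of 6 in LPS+Skatole against DMSO. Those of other cell types were higher at 0, 2 and 2 of 12. The shares of all genes given above for these comparisons apply here too.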

How the data were processed

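p65 CUT&Tag libraries of RAW264.7 cells were analysed from the peak lists that the authors deposited, 1 per library. The submitters' processing notes name fastp 0.20.1, HISAT2 2.1.0, StringTie 2.0 and mm10; the peak caller and the use of a control are not given in the sources used here. Each deposited row holds a score, a fold (a ratio of summit to local background), a −log10 p and a −log10 q, and the deposited lists end at a −log10 p of 5. Summit counts and backgrounds were recovered from fold and p as a Poisson tail, and the recovery was tested on simulated data. At summits shared by 2 libraries (322 to 578 per pair), the local background as a multiple of the genome background differed by a median of 0.125% to 5.36%. Peaks were merged where they overlapped by at least 1 bp. Log2 summit counts, scaled to equal medians, of the 13824 regions present in all 9 lists were tested with limma 3.58.1 (R 4.3.3) with Benjamini-Hochberg adjustment over all regions at a threshold of 0.05. Peak numbers were compared by two-sided exact permutation tests. Gene positions came from a RefSeq table of GRCm38.p6. Named were all 8 genes and every region with a peak in at least 5 libraries, and the positions of regions with fewer are not listed; the members and lists were chosen with earlier results of these data known. Alternatives changed the window, thresholds, list length, scaling, region definition and libraries.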

Additional observations from a re-analysis of the deposited data

How the results depend on the processing

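Of 117 alternatives for the counts and ratios, 86 stayed near the reported value. The ratio of peaks was 1.14 between LPS and DMSO and 1.45 between LPS+Skatole and DMSO. Assigning each peak to its nearest gene gave 1.68 and 2.41, and lists of equal length with the 10 kb windows gave 0.884 and 0.930. Genes with non-overlapping peak numbers came to 0 with lists of equal length in each comparison (3.18% to 5.66% of all genes). Between LPS+Skatole and LPS they came to 1 at a −log10 q of at least 5 (7.68% of genes) and 0 by nearest gene (10.6%), and for LPS+Skatole against DMSO to 1 with summits of at least 8 times the background (11.3%). Regions that passed by height in LPS against DMSO (2 of 7, against 1.79% of all regions) came to 1 of 7, the Cxcl2 region, with genome-background scaling (4.39%) and with regions in all 6 libraries of the pair (1.45%). They came to 1, the one at Zmynd15, of 3 regions from summits (2.48%) and of 6 or 8 sites from summits within 500 bp in all 9 (1.90%) or all 6 libraries (1.71%), where the merged Cxcl2 region was not tested. They came to 0 of 7 with the authors' fold (0.275%) and to 0 of 8 with sites in all 6 libraries and genome-background scaling together (5.59%). That pair of choices gave 3 of 9 sites higher for LPS+Skatole against LPS, against 4.20% of all sites called (the Cxcl2 start, 9 kb before Cxcl1, and Med11). The count for LPS+Skatole and DMSO (3 of 7, against 8.40%) was 0 of 7 with the authors' fold (1.43%) and 1 of 7 with summits within 500 bp in all 6 libraries (6.06%). With the authors' fold the region past Cxcl9 reversed to -0.23 in LPS+Skatole against DMSO and was -0.77 in LPS against DMSO. Genome-background scaling moved the median of all regions by -0.20 between LPS and DMSO (from -0.04 to -0.24) and by 0.28 between LPS+Skatole and LPS. The cause of these changes was not tested.

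Replicate numbers did not pair the libraries (correlations of -0.00963 to 0.0141 between same-numbered libraries). With the replicate block the non-overlapping genes came to 2 between LPS and DMSO (18.8% of all genes) and 4 between LPS+Skatole and DMSO (31.4%), and the regions that passed by height in LPS against DMSO to 1, the Cxcl2 region (1.53%).

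Leaving out 1 library gave 1 to 2 non-overlapping genes for LPS against DMSO (2 without LPS replicate 1 or 2; 14.9% to 18.2% of all genes), 2 for LPS+Skatole against LPS (13.3% to 15.0%) and 2 to 3 for LPS+Skatole against DMSO (26.7% to 30.1%). Regions that passed by height came to 1 to 2 for LPS against DMSO (1 without DMSO replicate 2 or any LPS library; 0.723% to 1.38% of all regions), 0 for LPS+Skatole against LPS (0.0651% to 0.217%) and 1 to 3 for LPS+Skatole against DMSO (1 without DMSO replicate 2 or LPS+Skatole replicate 2 or 3; 5.27% to 5.80%). The ratios of peaks ran from 0.989 to 1.23, 1.19 to 1.47 and 1.36 to 1.60. The merged Cxcl2 region passed in each such fit against DMSO, but these fits compare different summits, 5 kb before the start in DMSO and at the start in the others, and do not test that. Of the 6 fits without a DMSO or LPS library, the region at Zmynd15 passed in LPS against DMSO in 1, without DMSO replicate 1. DMSO libraries had the lowest genome background and, as multiples of it, the highest limits of calling, and weak DMSO peaks may go unlisted.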
